A study of Drosophila melanogaster with 12 samples.

Results

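The Scribble module comprises 3 genes, l(2)gl, scrib and dlg1, taken by exact symbol from the genes that the authors placed on a list of 2000 genes with a simulated splicing change (AS list) or on a list of 14595 genes without one (non-AS list). The libraries were made in silico to resemble RNA sequencing of S2 cells of Drosophila, a line from embryos that resembles hemocytes, the blood cells of the fly. There were 3 libraries at each of the 20%, 40% and 60% levels of splicing change, labelled with an siRNA against the splicing factor PSI, and 3 control libraries labelled with a non-targeting siRNA. The control libraries served for all 3 levels. For each level the authors deposited 1 table from each of 6 programs that look for differential splicing (JUM, MAJIQ, rMATS, Whippet, Cufflinks and MISO), 18 tables in all, with 1 score per gene. No cell was treated, so a score tells how a program read a simulated transcript population and not what PSI does to polarity genes.

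The Scribble module sets the basolateral domain of epithelial cells and opposes the apical Par and Crumbs modules. Loss of any of its genes makes fly imaginal discs lose their layered architecture and overgrow, which is why they are called neoplastic tumour suppressors. Lgl, the product of l(2)gl, is a WD40-repeat protein that binds non-muscle myosin II and is driven off the apical cortex when atypical protein kinase C phosphorylates it. Scrib is a cortical scaffold of leucine-rich repeats and PDZ domains. Dlg, the product of dlg1, is a membrane-associated guanylate kinase (MAGUK) scaffold with PDZ, SH3 and guanylate-kinase-like domains, found at septate junctions and at synapses.

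The module was split between the lists: l(2)gl lay on the AS list, while scrib and dlg1 lay on the non-AS list. Over all genes, 12.1% were on the AS list. A score summarises 3 knockdown and 3 control libraries together, so no spread between replicates exists, the read depth is unknown, and no difference below was tested. The tables hold no expression level, so neither the loss of Psi nor the S2 identity could be checked against a marker. Of markers chosen for this purpose, 5 of 5 for hemocyte-like cells, 2 of 2 for ovarian follicle cells and 2 of 2 for neurons appeared on either list, with 4, 0 and 0 on the AS list, which says nothing about their expression.

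All 3 genes have complex annotated transcripts. In the Ensembl release 115 annotation of BDGP6.54, a later build than the dm3 named in the submitters' processing notes, l(2)gl (FBgn0002121) lies on chromosome arm 2L from 9839 to 21376 on the minus strand. It has 11 transcripts, each with its own intron chain, the set of introns that a transcript removes. The gene scrib (FBgn0263289) lies on 3R from 26536350 to 26604051 on the plus strand, with 18 transcripts and 18 intron chains. The gene dlg1 (FBgn0001624) lies on X from 11369665 to 11409776 on the plus strand, with 21 transcripts and 20 intron chains. The median was 1 intron chain on the AS list and 1 on the non-AS list. Of the AS-list genes with an annotation 1.67% had at least as many chains as l(2)gl. Of such non-AS-list genes 0.139% had at least as many as scrib, and 0.0902% at least as many as dlg1.

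The kinds of alternative structure differed among the 3. In l(2)gl, 4 introns were common to all 11 transcripts and 5 distinct internal exons of 109 to 160 bases were skipped by some other transcript, 1 of which is annotated in 3 forms with different splice sites. Of these 5 exons, 1 was wholly coding: it has 109 bases, begins 9.86 kb from the 5′ end of the gene and is part of 10 of 11 transcripts. The others begin within the first 4.16 kb, 2 of them partly coding, and the annotated proteins run from 1093 to 1161 amino acids. In scrib, 3 introns were common to all transcripts, 7 distinct internal exons were skipped by some other transcript, and 6 of these had a wholly coding form, all 6 with a length divisible by 3. Of the 7, 1 is annotated in 2 forms. Its annotated proteins run from 1247 to 2585 amino acids in 17 lengths. In dlg1 no intron was common to all 21 transcripts, 7 transcript start sites were annotated, and 12 distinct internal exons were skipped by some other transcript, 1 of them annotated in 2 forms. Its proteins run from 198 to 1030 amino acids. Because the tables give a score per gene and not per exon, which junction was altered in l(2)gl cannot be read from them.

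**Figure D1:**
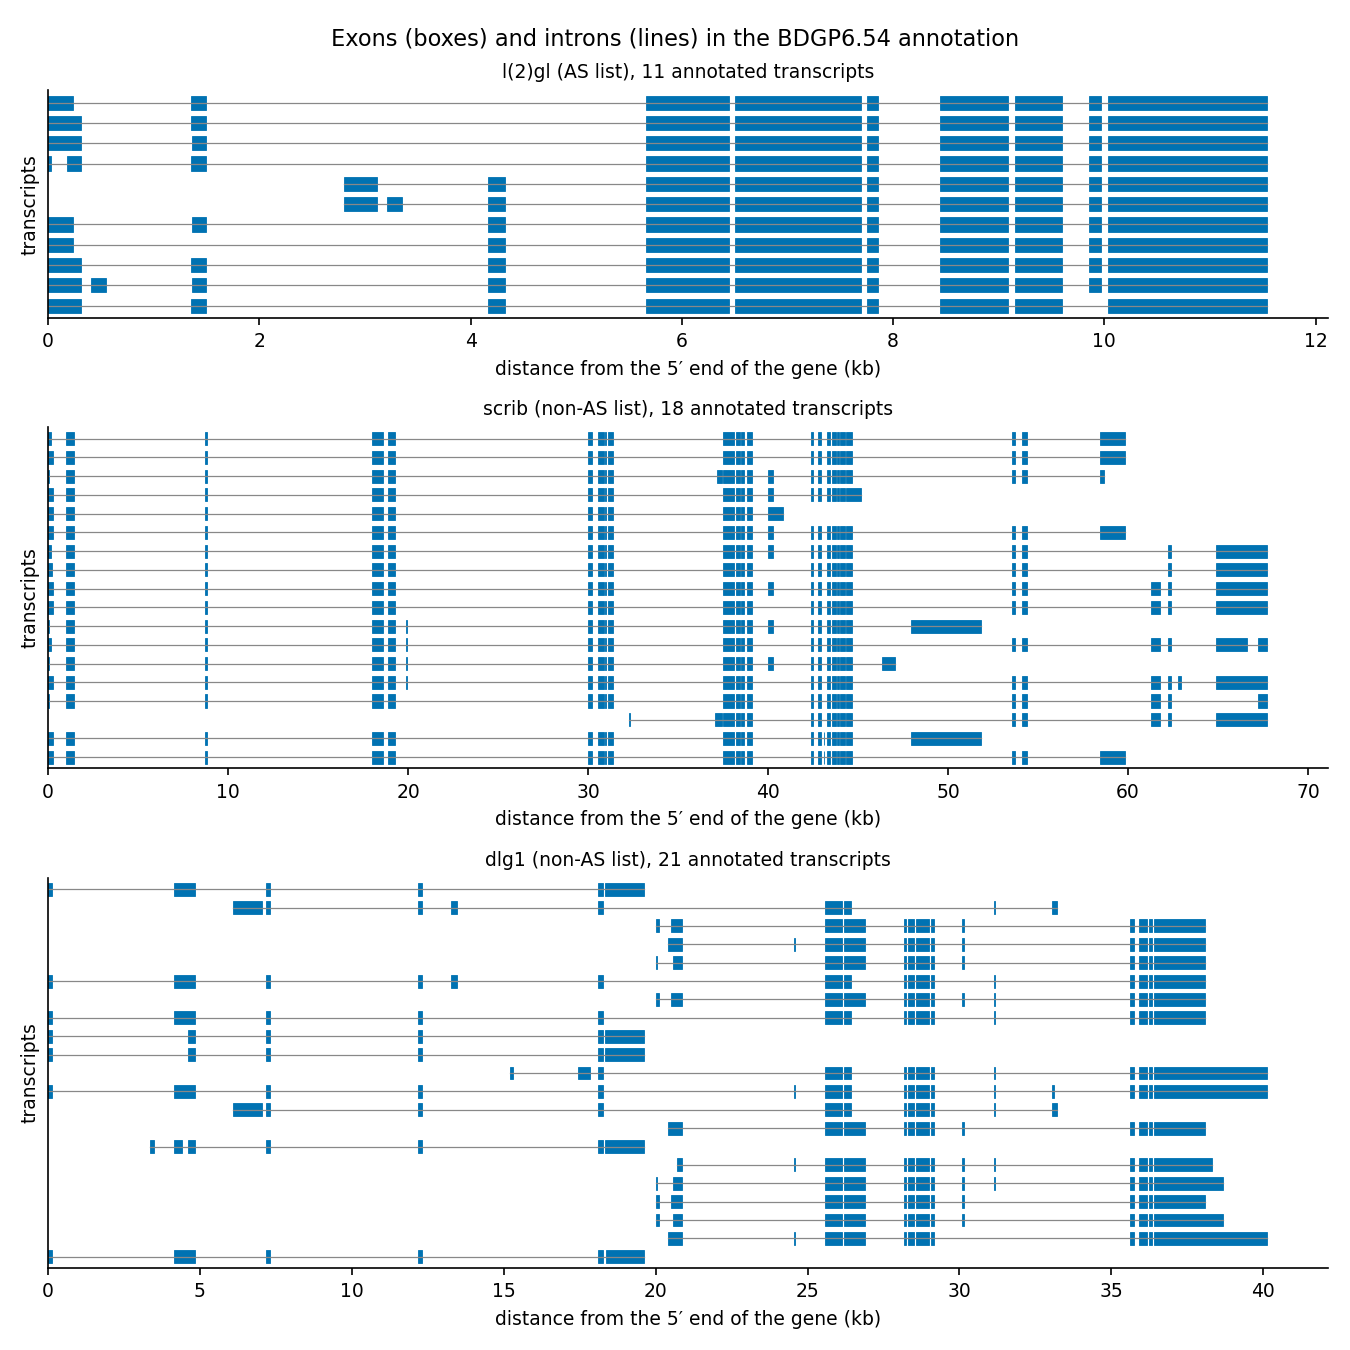
Annotated transcripts of l(2)gl, scrib and dlg1, one per line, with exons as boxes and introns as lines, against distance from the 5′ end of the gene in kb. In l(2)gl the 11 transcripts differ mainly upstream, whereas the 18 transcripts of scrib differ mostly downstream and the 21 of dlg1 along the whole gene.

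A score was counted as past the threshold at 0.95 or more for the 5 programs whose scores run up to 1, and at a Bayes factor of 10 or more for MISO. By this rule l(2)gl was past the threshold in 14 of 18 tables, scrib in 4 of 18 and dlg1 in 4 of the 15 that listed it. With MAJIQ the 2 non-AS-list genes passed at no level, and with JUM, rMATS, Whippet or Cufflinks neither passed at all 3 levels.

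JUM, a method that works from splice junction reads without a transcript annotation, called 1 of the 3 genes at the 20% level, where it called 38% of the genes in its table. Of its table, 41.6% and 43.3% were called at the 40% and 60% levels, where 2 of the 3 genes passed each time. MAJIQ, which models local splicing variations, called 1 of 3 at each level, beside 20.1%, 30.9% and 33% of its table at the 20%, 40% and 60% levels. With rMATS, which compares event types such as skipped exons, 2, 1 and 3 of 3 passed at the 20%, 40% and 60% levels, beside 29.8%, 34% and 35.8% of its table. Whippet, which quantifies nodes of a splice graph, called 3 of 3 at the 20% level and 1 of 3 at the other levels, beside 21%, 24.7% and 26.4%. Cufflinks, which assembles and quantifies transcripts, called 1 of 3 at each level, beside 1.36%, 2.9% and 3.56%. MISO, which fits isoform shares, called 0 of the 2 genes it listed at each level, beside 0.635%, 1.52% and 5.47%. These shares mix both lists. Within the AS list, where l(2)gl belongs, JUM called 84.3%, 91% and 91.9% of the genes in its table at the 20%, 40% and 60% levels, and Cufflinks 10.1%, 21.6% and 26.4%. Within the non-AS list, where scrib and dlg1 belong, rMATS called 3.05%, 4.15% and 4.67% and Whippet 3.29%, 4.31% and 4.27%. MAJIQ called 1.84%, 3.12% and 4.05% of the non-AS-list genes in its table.

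The AS-list member l(2)gl was listed by all 6 programs at each level, as were 4.4% of AS-list genes at the 60% level. In the authors' deposited tables its JUM, MAJIQ, rMATS and Whippet scores were each 1 at the 20%, 40% and 60% levels. No gene can score higher, but many were tied at that value, and fewer were so at the smaller changes. Among the AS-list genes in the MAJIQ tables, 69 scored 1 at the 20% level (9.47%), 446 at the 40% level (60.4%), and 580 at the 60% level (79.0%). Of the 411 AS-list genes that JUM, MAJIQ, rMATS and Whippet all listed at the 20% level, 34 scored 1 in all 4 tables (8.27%), l(2)gl among them. At the 40% and 60% levels the corresponding sets held 246 (60.1%) and 317 genes (77.1%), and l(2)gl was in both. No non-AS-list gene was in any of these 3 sets, out of 579, 573 and 576 listed by the 4 programs.

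Cufflinks and MISO gave l(2)gl scores that moved with the level. The Cufflinks score in the authors' deposited tables was 0.848669, 0.999637 and 0.999741 at the 20%, 40% and 60% levels. The upper 2 were the highest values in their tables, shared by 315 and 415 genes, l(2)gl included. The score at the 20% level fell short of 0.95, yet only 18 of the 12539 non-AS-list genes in that table scored as high or higher (0.144%), against 251 of the 1822 AS-list genes (13.8%). The MISO Bayes factor in the authors' deposited tables was 0.93, 1.11 and 8.42 at the 20%, 40% and 60% levels, never reaching 10. Of the non-AS-list genes in the MISO tables, 14.4%, 12.3% and 2.97% scored as high as l(2)gl. With JUM, MAJIQ, rMATS and Whippet that share was between 0.133% and 2.86% over the 3 levels.

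**Figure D2:**
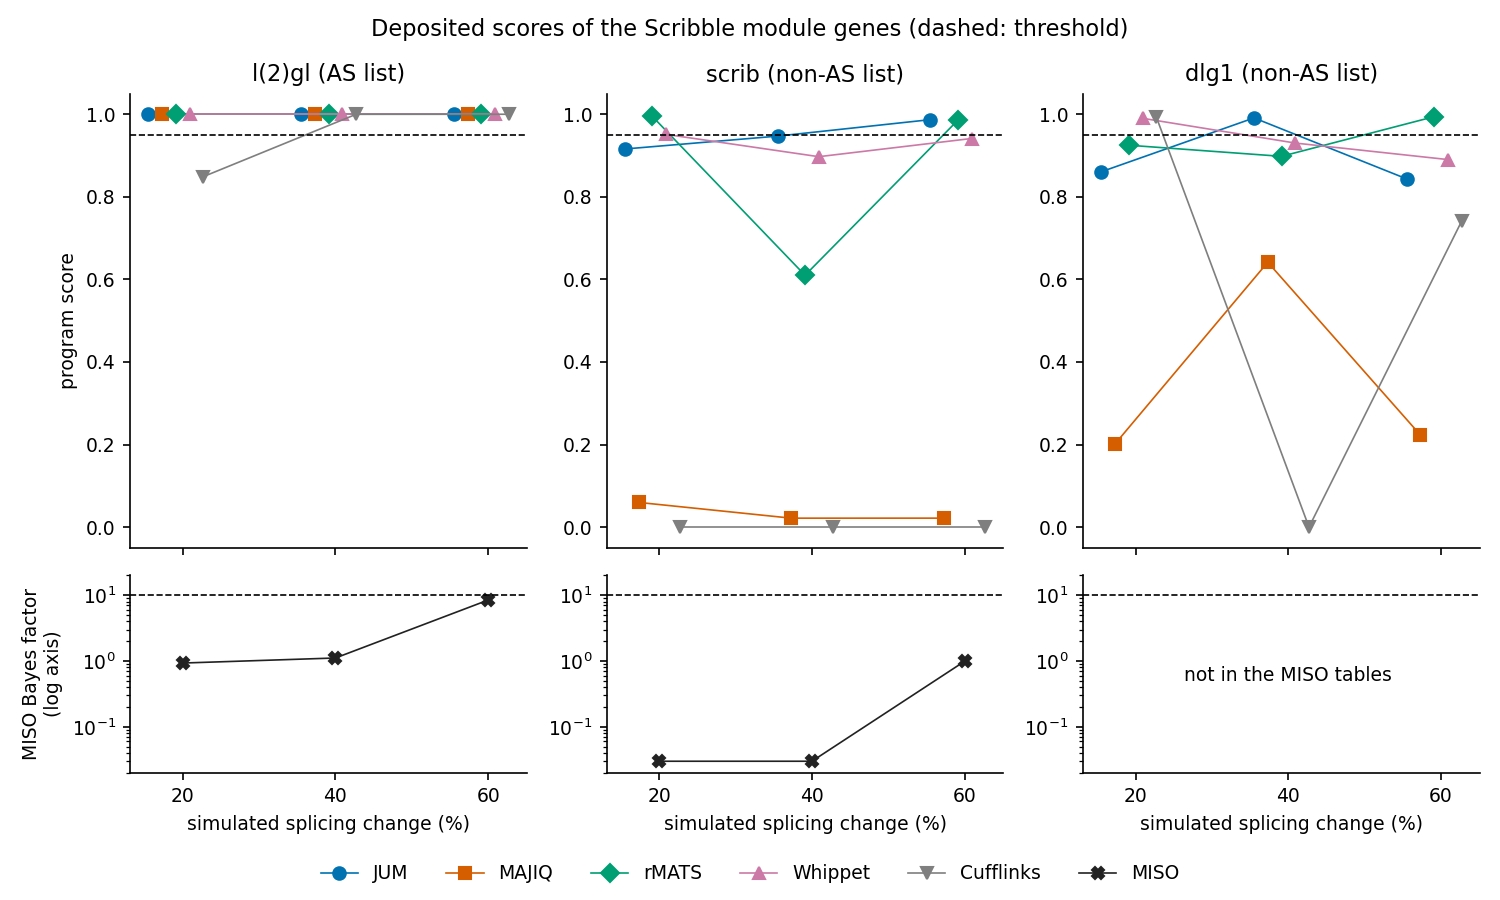
Deposited scores of l(2)gl, scrib and dlg1 against the level of simulated splicing change (%), with 1 point per program and level, shifted sideways for clarity. The lower row shows MISO Bayes factors on a log axis, and dashed lines mark the thresholds of 0.95 and 10. For l(2)gl 4 programs stay at 1, whereas scrib and dlg1 cross the line in different programs at different levels.

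The non-AS-list member scrib was also listed by all 6 programs at each level, as were 0.761%, 0.836% and 0.829% of non-AS-list genes. Its JUM score in the authors' deposited tables was 0.91561, 0.946795 and 0.986676 at the 20%, 40% and 60% levels. JUM called 6.47%, 8.09% and 10% of the non-AS-list genes in its table at these levels, and scrib was among them at the 60% level. Its rMATS score in the authors' deposited tables was 0.994685, 0.609851 and 0.985093, with the dip at the middle level. At the 20% level 13 of the 754 non-AS-list genes in the rMATS table reached the score of scrib (1.72%), itself included. The share was 17.8% at the 40% level. The Whippet score in the authors' deposited tables was 0.951, 0.897 and 0.941, so it lay just past the threshold at the 20% level and just under it at the 60% level. In all 9 of these tables scrib stood among the upper 17.8% of the non-AS-list genes, and it passed in 4.

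MAJIQ, Cufflinks and MISO each scored scrib under the threshold at every level. Its MAJIQ score in the authors' deposited tables was 0.0599, 0.0217 and 0.0218 at the 20%, 40% and 60% levels, its Cufflinks score was 0 at each level, and its MISO Bayes factor was 0.03, 0.03 and 0.99. The MAJIQ values still stood above the median of the non-AS-list genes in that table, which was 0.00274 at the 60% level, and 9.86%, 20.2% and 23.1% of these genes scored as high as scrib at the 20%, 40% and 60% levels. With MISO the shares were 86.6%, 84.8% and 19.8%, so the standing of scrib in the MISO table was higher at the 60% level than at the others. At the 60% level scrib was called by JUM and rMATS, a combination shared with 4 other genes, all on the non-AS list. At the 20% level it was called by rMATS and Whippet, shared with 8 AS-list genes and 1 other non-AS-list gene. Over all non-AS-list genes, 0.116%, 0.171% and 0.267% were called by 2 or more programs at the 20%, 40% and 60% levels. Most of these genes were listed by 1 program or none. Among those listed by 6 programs, as scrib was, the shares were 2.7%, 4.1% and 5.79%. The count for scrib depended on the threshold: it passed in 1 table at 0.99, in 4 at 0.95 and in 7 at 0.90.

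The MAGUK gene dlg1 was listed by every program but MISO. Its JUM score in the authors' deposited tables was 0.860486, 0.99087 and 0.8432 at the 20%, 40% and 60% levels, past the threshold at the 40% level. Its rMATS score in the authors' deposited tables was 0.924755, 0.897846 and 0.993983, past it at the 60% level. The Whippet score in the authors' deposited tables was 0.99, 0.93 and 0.89, past it at the 20% level. Thus JUM, rMATS and Whippet each called dlg1 at 1 level, and no level was common to any pair of them. At those levels they called 8.09%, 4.67% and 3.29% of the non-AS-list genes in their tables. Calls by 2 or more programs were rare among non-AS-list genes listed by 5 programs, as dlg1 was. They covered 0.81%, 1.46% and 2.92% of these genes at the 20%, 40% and 60% levels.

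Cufflinks moved most for dlg1. In the authors' deposited tables its Cufflinks score was 0.993503, 0 and 0.741274 at the 20%, 40% and 60% levels. At the 20% level Cufflinks called 11 of 12539 non-AS-list genes (0.0877%), dlg1 among them, and 7 of these scored as high as dlg1 or higher, dlg1 included. At the 40% level dlg1 shared its score of 0 with 13635 of the 14361 genes in the table. Its MAJIQ score in the authors' deposited tables was 0.201481, 0.641464 and 0.222778, under the threshold at each level but well above the corresponding values of scrib. Of the non-AS-list genes in the MAJIQ table, 5.53%, 4.32% and 7.70% scored as high as dlg1 at the 20%, 40% and 60% levels. At the 20% level the programs that called dlg1 were Whippet and Cufflinks, a combination shared with 14 AS-list genes and 1 other non-AS-list gene.

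**Figure D3:**
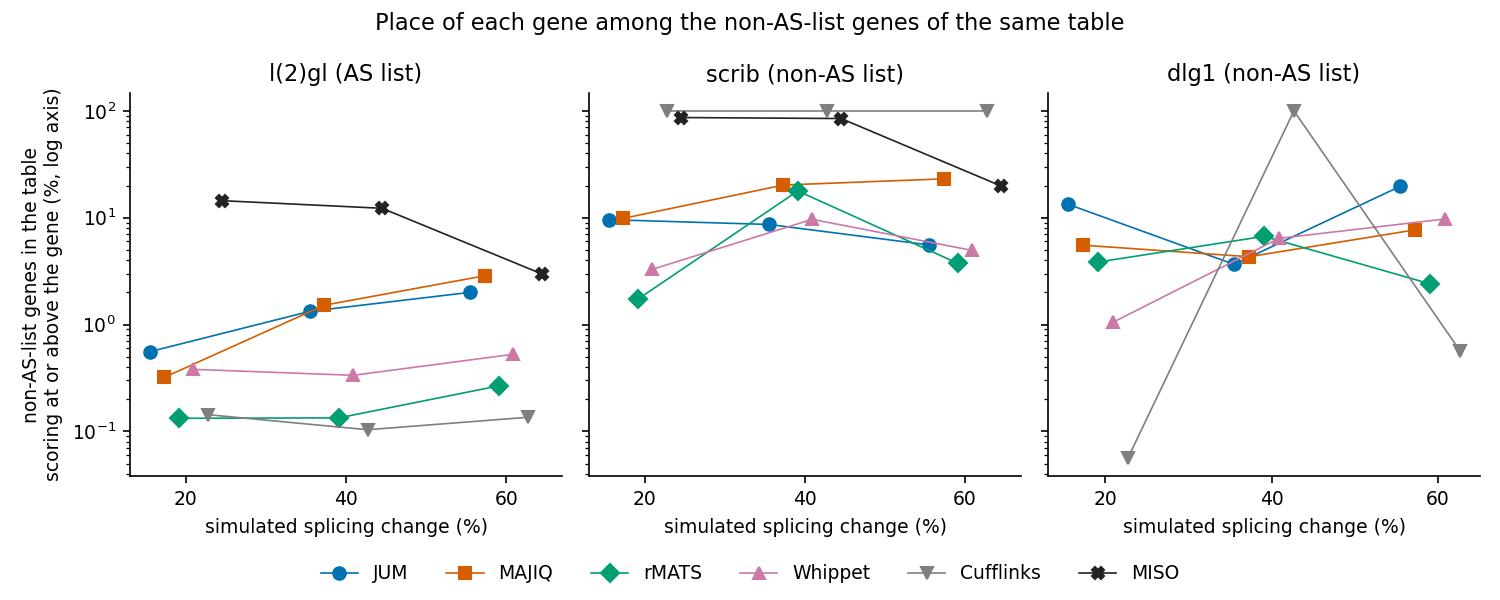
Share of the non-AS-list genes in each table that scored at or above l(2)gl, scrib or dlg1 (percent, log axis), against the level of simulated splicing change (%), with 1 point per program and level. Apart from MISO all points of l(2)gl lie under 3%, while those of scrib lie between 1.72% and 100% and those of dlg1 between 0.0558% and 100%.

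Genes with more annotated intron chains, as in the module, were more often called by 1 or more programs. Of the 45 AS-list genes with 10 or more annotated intron chains, as in l(2)gl, 95.6%, 97.8% and 97.8% were called by 1 or more programs at the 20%, 40% and 60% levels. Of the 1131 AS-list genes with 0 or 1 chain, 13.9%, 17.3% and 19.7% were. For 4 or more programs, the number that l(2)gl reached at each level, the shares among the 45 genes were 55.6%, 88.9% and 88.9%, beside 13.2%, 19.9% and 21.6% of the whole AS list. The 164 non-AS-list genes with 10 or more chains, among them scrib and dlg1, were called by 1 or more programs in 12.2%, 15.2% and 14.6% of cases. The 9902 non-AS-list genes with 0 or 1 chain were so in 0.212%, 0.434% and 0.545%, and the whole non-AS list in 1.14%, 1.53% and 1.75%. These groups also differed in listing: at the 60% level 5 or more programs listed 88.9% of the AS-list genes with 10 or more chains and 0.619% of those with 0 or 1. On the non-AS list these shares were 28.7% and 0.0303%. The part of listing in the difference in calls was not tested.

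**Figure D4:**
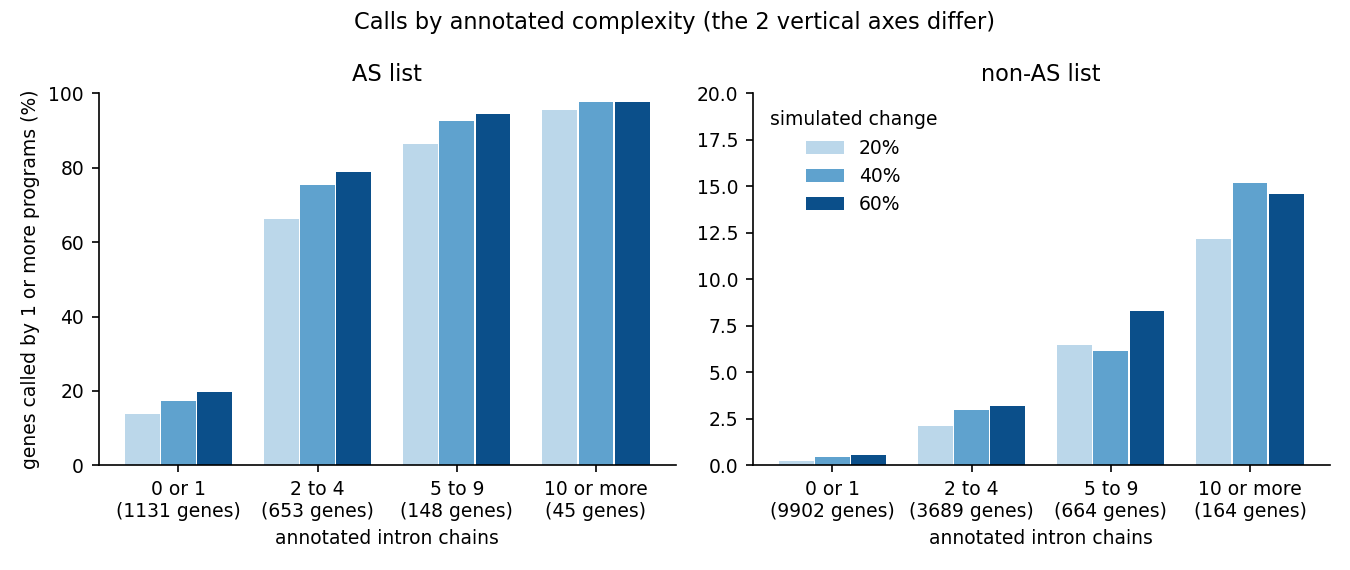
Percent of genes past the threshold in 1 or more programs, by number of annotated intron chains (horizontal axis, with the number of genes) and level of simulated splicing change (colours), for the AS list and the non-AS list. The vertical axes differ: bars reach 97.8% on the AS list and 15.2% on the non-AS list in the group of 10 or more chains that holds l(2)gl, scrib and dlg1.

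By program, non-AS-list genes with 10 or more chains passed in 18.9%, 20% and 22.2% of those JUM listed at the 20%, 40% and 60% levels. With rMATS it was 9.62%, 13.5% and 17.3%, and with Whippet 14.8%, 16.7% and 14.5%. With MAJIQ it was 0%, 1.69% and 1.69% of 58, 59 and 59 genes, and the 0 at the 20% level is a complete count of the table. These shares were lower than those of all non-AS-list genes in the MAJIQ table, which were 1.84%, 3.12% and 4.05%. The calls on scrib and dlg1 came from JUM, rMATS and Whippet, except for the Cufflinks call on dlg1 at the 20% level. That call was the only one among the 158 non-AS-list genes with 10 or more chains in the Cufflinks table at this level. Among non-AS-list genes listed by 5 or 6 programs, as scrib and dlg1 were, 10.6%, 15.4% and 17.2% were called by 1 or more programs.

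Other genes of cell polarity and of the growth control linked to it were taken from 8 lists that hold 64 symbols in all, of which 63 were on the authors' lists. The symbol pins, another name of raps, was not. Of the 63, 11 lay on the AS list (17.5%), beside 12.1% of all genes. The Par module and its kinases, which set the apical border and its limits, had 1 of 6 genes on the AS list (par-6), and the Crumbs module had 1 of 6 (sdt). The relatives of the Scribble module proteins had 3 of 7 (CASK, metro and sdt, all MAGUK genes), and the partners of the module had 1 of 11 (14-3-3epsilon, whose product binds phosphorylated proteins). Junction genes had 2 of 13 (Nrg and sinu), planar polarity genes 1 of 9 (dsh), Hippo pathway genes 3 of 10 (yki, kibra and sd), and the Yurt and Coracle group 0 of 4. By any program, 9, 8 and 9 of the 11 were called at the 20%, 40% and 60% levels, beside 38.5%, 44.1% and 46.8% of the AS list. Among AS-list genes listed by 5 or 6 programs, 95.8%, 98.6% and 98.6% were called. Of the 11, CASK, sdt, 14-3-3epsilon, Nrg, yki and sd were so listed, and each was called at every level. The others, metro, par-6, kibra, sinu and dsh, were listed by fewer programs.

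Several AS-list polarity genes had a pattern close to that of l(2)gl. Calls by 4 or more programs were common among AS-list genes listed by 5 or 6 programs. They covered 58.1%, 85.1% and 89.4% of these genes at the 20%, 40% and 60% levels. For yki, the transcriptional coactivator of the Hippo pathway, the authors' deposited tables gave JUM and Whippet scores of 1 at each level. Its Cufflinks scores were 0.821422, 0.999637 and 0.999741 at the 20%, 40% and 60% levels. At the 20% level its MAJIQ and rMATS scores were 0.999759 and 0.99999. For sdt, the Crumbs scaffold Stardust, JUM, MAJIQ and Whippet gave 1 at each level in the authors' deposited tables. The Cufflinks score of sdt was 0, 0 and 0.398629. The gene 14-3-3epsilon scored 1 in the authors' deposited tables with JUM, MAJIQ, rMATS and Whippet at each level and 0 with Cufflinks. CASK, a MAGUK gene related to dlg1, was given 0.245836, 1 and 1 by MAJIQ in the authors' deposited tables. The neuroglian gene Nrg moved more: in the authors' deposited tables it had 0, 0.999996 and 1 with rMATS and 0.812, 0.898 and 0.977 with Whippet. The gene sd, whose product is the DNA-binding partner of Yki, had JUM and Whippet scores of 1 at each level in the authors' deposited tables. MAJIQ gave sd 0.907718, 1 and 1 at the 20%, 40% and 60% levels, and Cufflinks gave it 0, 0 and 0.76652. In contrast, sinu (a claudin) and dsh (Dishevelled), each with 1 annotated intron chain, were listed by Cufflinks alone, with a score of 0 at each level in the authors' deposited tables. Whippet alone called par-6 and kibra, each with 1 annotated chain, at all 3 levels.

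**Figure D5:**
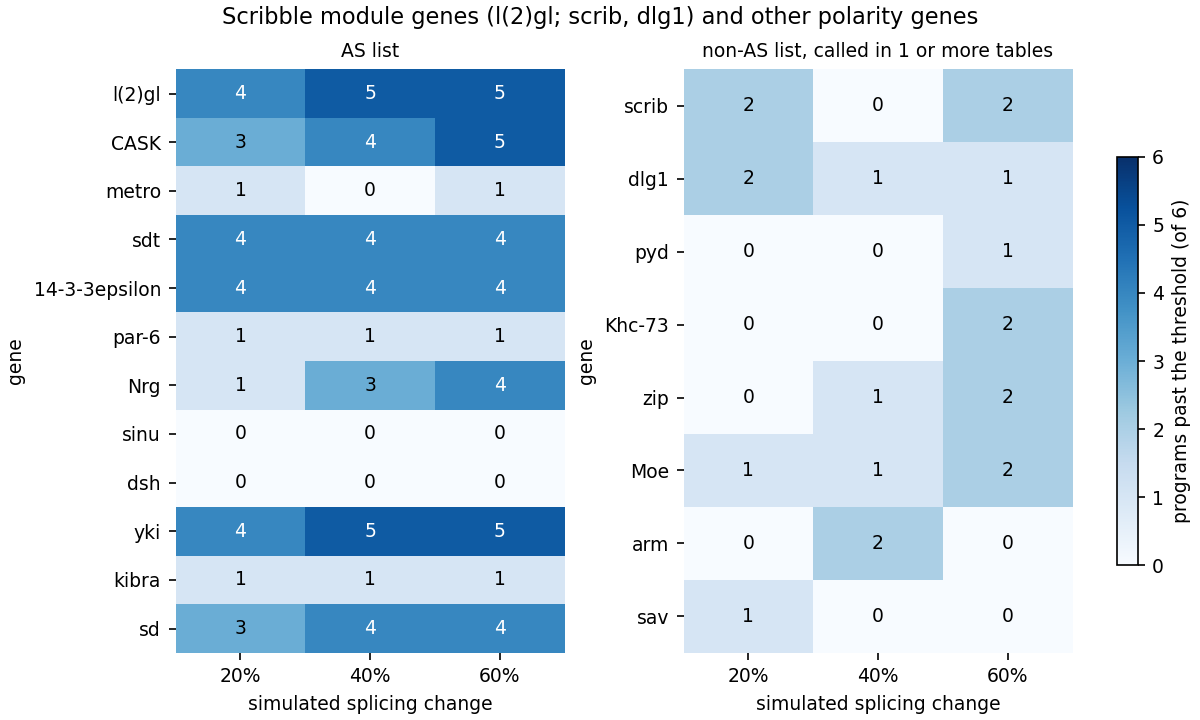
Number of programs (of 6) past the threshold for each gene (rows) and level of simulated splicing change (columns), for l(2)gl and the other AS-list polarity genes and for scrib, dlg1 and those other non-AS-list polarity genes with 1 or more calls. The counts for l(2)gl are 4, 5 and 5 from the 20% to the 60% level, those for scrib 2, 0 and 2 and those for dlg1 2, 1 and 1.

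The likeness of patterns was measured as the number of 18 tables in which a gene had the same state, that is unlisted, listed under the threshold or past it. All 18 states of l(2)gl were shared by 13 other genes, all on the AS list. The nearest of these by rank were RpS15Aa (a ribosomal protein), kuz (a membrane metalloprotease), Tm1 (tropomyosin), CG34408 and eIF-4a (a translation initiation helicase). For scrib the best was CG5537 with 16 of 18, followed by Gug, SCAR, RhoGAP16F and CG32549 with 15 each. For dlg1, 20 genes shared 15 of 18 states, all on the non-AS list, and the nearest were CG14408, hoe1, CG2225, CG5199 and Fak (focal adhesion kinase). Within the module scrib and dlg1 shared 11 of 18 states, l(2)gl and scrib 8, and l(2)gl and dlg1 3. Tables where both genes were unlisted, or both listed under the threshold, counted towards these numbers. Each of scrib and dlg1 passed in 4 tables. A never-called gene listed in the same tables as either would therefore share all but 4 of its states. The number shared by scrib and dlg1 was smaller than that. The 3 levels share control libraries and the 6 programs read the same libraries, so the 18 states are not independent.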

How the data were processed

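The data are 18 tables of gene scores, as deposited by the authors, and the authors' 2 gene lists. Each score was taken as it stands, a higher one being read as stronger evidence of a splicing change; no label states its scale. STAR 2.5.4b, Cufflinks and the build dm3 are named in the submitters' processing notes; for the simulator, depth and program settings nothing is given in these sources. The class column matched the lists for every gene (0 mismatches) and no gene was repeated. The rMATS tables hold 8 to 10 negative scores each, which were ranked lowest.

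Calls used 0.95, or a Bayes factor of 10 for MISO. Shares of genes at or above a score count ties. No test was made, because each table holds 1 value per gene for 3 knockdown and 3 control libraries, so precision is unknown. By symbol or unique synonym 16396 genes (98.8%) were found in BDGP6.54 (Ensembl release 115), and an exon counts as skipped where it lies inside an intron of another transcript, overlapping forms being counted once. The members and gene lists were chosen with earlier results of these data known, and the grouping by intron chains after the scores were seen. Named polarity genes are those on the AS list, with values where 4 or more programs called them at the 60% level or none did at any level. For each member, 5 genes with the most like pattern are named, AS-list genes first and ties by rank. Alternatives covered thresholds and ranks. Counting was tested on simulated scores. Software was numpy 2.4.6, scipy 1.17.1 and, for the plots, matplotlib 3.10.9, under Python 3.11.15.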

Additional observations from a re-analysis of the deposited data

How the results depend on the processing

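The number of tables with a call on l(2)gl was 14 at 0.95, 0.99 and 0.90, 15 with a Bayes factor of 5, and 18, every table, with a rank threshold that 5% or 1% of the non-AS list may reach. For scrib the count was 4 at 0.95, 1 at 0.99, 7 at 0.90, 15 with the 5% rank threshold and 10 with the 1% one. For dlg1 it was 4 at 0.95 and 0.99, 6 at 0.90, 14 with the 5% rank threshold and 12 with the 1% one. These rank thresholds are taken over the whole non-AS list, most of which is unlisted by every program but Cufflinks. At 5% they therefore count every MISO gene and lie as low as 5.9e-05 for Cufflinks at the 60% level. For MAJIQ they lie between 0.000542 and 0.00148 over the 3 levels. At 1% the MISO threshold was a Bayes factor of 0.07, 0.12 and 0.12 at the 20%, 40% and 60% levels. That is below the median of the non-AS-list genes MISO listed, 0.34, 0.295 and 0.375. The count of 18 for l(2)gl includes these MISO tables. Polarity genes were counted at 0.95, at 0.99 with a Bayes factor of 20, and with the 5% rank threshold. Under these settings AS-list polarity genes called by any program numbered 8 to 9. Those on the non-AS list numbered 16 at each level with the 5% rank threshold. At 0.95 they numbered 2, 3 and 4 from the 20% to the 60% level. Ranking likeness by Spearman correlation instead kept 4 of 5 named genes for l(2)gl, 0 of 5 for scrib and 1 of 5 for dlg1. By this measure the 5 nearest dlg1 came from both lists. Clc, P5CDh1 and Rab5 lay on the AS list, and Reps and CG14408 on the non-AS list. No paired analysis was possible because each table holds 1 pooled score per gene, and for the same reason no replicate could be left out. The depth is unknown, so what it limits is unknown too.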

Other observations

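Of the other polarity genes, 52 lay on the non-AS list, and 2, 3 and 4 of them were called by 1 or more programs at the 20%, 40% and 60% levels (3.85%, 5.77% and 7.69%, beside 1.14%, 1.53% and 1.75% of the whole non-AS list). Their names were taken because they were called, after their values were seen. They are Khc-73, a kinesin that binds Dlg, zip, the heavy chain of the myosin II that Lgl binds, Moe (moesin), arm (beta-catenin), pyd, a MAGUK gene, and sav, a Hippo pathway scaffold. Each was listed by 5 or 6 programs at every level. Other non-AS-list polarity genes so listed were sqh, Cdc42, veli, yrt, Atpalpha and nrv2, which were called at no level. The rest of the 52 were listed by fewer programs. Among all non-AS-list genes listed by 5 or 6 programs, 10.6%, 15.4% and 17.2% were called by 1 or more programs. This share and the share of all 52 cover unlike sets. The part of listing in the difference from the whole non-AS list was not tested. In the authors' deposited tables Khc-73 had a JUM score of 0.99787 and an rMATS score of 0.987172 at the 60% level, the same combination of programs as for scrib. Moe was called at each level: in the authors' deposited tables it passed with Whippet at the 20% level (1) and the 60% level (0.999), while JUM called it at the 40% level (0.969893) and the 60% level (0.995433). Moe has 13 annotated intron chains and pyd 12, zip has 9, arm 6, Khc-73 4 and sav 2. No non-AS-list polarity gene, scrib and dlg1 included, was called by more than 2 programs at any level.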
